A study of Homo sapiens with 2 samples.

Results

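The 7 genes FAP, DPP4, PDPN, F3, TM4SF1, AMIGO2 and TMEM200A encode membrane proteins, most of them known from the surface of fibroblasts and related stromal cells. They were selected on the difference between the same 2 arrays described here, as surface genes whose signals were far lower in outgrowth cultures grown with SB-431542 than in control cultures. They are 7 of the 19775 genes that had a probe set of their own on the array, and they are read by 16 probe sets, each named for 1 of the 7 genes alone. Every difference of a member below is therefore a description and none is a test.

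The cells came from HUES9, an established human embryonic stem cell line, used at passage 32. For 10 days both cultures were kept as embryoid bodies, suspended clusters where differentiation of the stem cells begins. They were then plated on fibronectin at 10 µg/ml in a chemically defined medium and carried to outgrowth passage 5. The SB-OG culture received 10 µM SB-431542 while the cells were in embryoid bodies and 1 µM throughout the outgrowth stage, and the control-OG culture received the solvent DMSO at 0.01%. In each condition 3 samples were taken and mixed, and the RNA of the mixture was read on 1 Affymetrix array. With 1 array per condition there is no replicate error, no p-value and no standard deviation between cultures for any value below. Each culture came from a single cell line and a mixture of whatever cells grew out, so fewer cells of a type and less RNA per cell cannot be told apart.

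SB-431542 blocks the receptor kinases ALK4, ALK5 and ALK7 through which nodal, activin and TGF-β signal, and which pass their signal to the nucleus through SMAD2 and SMAD3. TGF-β is a main activator of fibroblasts, and activated fibroblasts in wounds, scars and tumour stroma carry surface enzymes and adhesion proteins that resting cells lack. FAP and DPP4 are surface peptidases, F3 starts blood coagulation, PDPN and TM4SF1 are membrane glycoproteins linked to cell movement, AMIGO2 is an adhesion protein, and TMEM200A is a membrane protein of little-known function.

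The sequence before the transcript start was listed for 6 of the 7 members in RefSeq (build GRCh38.p14). The 250 bases before the most upstream listed start are shown for 4 of them, 5′ to 3′ on the strand of the gene. F3 and AMIGO2 are shown because they were the members with the AP-1 letters TGANTCA, TM4SF1 because it was the member with the TEAD letters GGAATG, and DPP4 because it lies beside FAP on chromosome 2. Capitals mark matches on either strand to TGANTCA, to GGAATG and to CAGAC, the short element that SMAD proteins recognise.
F3 (chr1:94541760-94542009, minus strand): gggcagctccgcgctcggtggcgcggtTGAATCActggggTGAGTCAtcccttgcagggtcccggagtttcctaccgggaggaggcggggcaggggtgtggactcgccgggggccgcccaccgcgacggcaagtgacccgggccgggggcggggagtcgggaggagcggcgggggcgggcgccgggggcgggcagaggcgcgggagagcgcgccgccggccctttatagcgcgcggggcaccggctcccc
AMIGO2 (chr12:47079960-47080209, minus strand): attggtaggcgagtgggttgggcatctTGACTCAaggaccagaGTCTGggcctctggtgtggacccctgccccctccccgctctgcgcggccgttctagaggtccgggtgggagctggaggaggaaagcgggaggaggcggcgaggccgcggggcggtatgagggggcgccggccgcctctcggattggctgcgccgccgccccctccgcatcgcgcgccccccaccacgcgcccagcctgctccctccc
TM4SF1 (chr3:149377650-149377899, minus strand): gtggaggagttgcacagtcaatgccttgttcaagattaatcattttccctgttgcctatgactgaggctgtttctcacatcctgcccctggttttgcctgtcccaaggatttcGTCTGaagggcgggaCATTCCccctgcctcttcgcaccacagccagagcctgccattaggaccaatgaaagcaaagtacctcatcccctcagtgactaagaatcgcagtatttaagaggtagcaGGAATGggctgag
DPP4 (chr2:162074216-162074465, minus strand): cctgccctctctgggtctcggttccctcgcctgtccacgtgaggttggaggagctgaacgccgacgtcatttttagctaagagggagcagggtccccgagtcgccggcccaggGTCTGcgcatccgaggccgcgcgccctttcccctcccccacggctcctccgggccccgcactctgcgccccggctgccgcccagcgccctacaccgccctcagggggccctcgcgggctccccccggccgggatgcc

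Across the 6 members with a listed sequence, CAGAC or its complement was found in the window of 4 (DPP4, TM4SF1, AMIGO2 and TMEM200A), against 38.0% of 35116 listed windows of the same length. TGANTCA, which reads the same on both strands, was found for F3, which held it at 223 to 217 and at 210 to 204 bases before the start, and for AMIGO2, at 223 to 217 bases. It was found in 6.57% of all listed windows. GGAATG or its complement was found for TM4SF1, at 122 to 117 and at 13 to 8 bases, and in 11.9% of all windows. GGGCGG, the letters bound by SP and KLF factors, was found on either strand in all 6 members and in 42.6% of all windows. TATAAA or its complement was found for F3, at 28 to 23 bases, and for PDPN, at 204 to 199 bases, and in 10.7% of all windows. None of these matches overlapped another. F3 had 34 CpG pairs in its window, DPP4 26, AMIGO2 25, TMEM200A 22, PDPN 14 and TM4SF1 4, where the median listed window had 11. Of these 5 patterns only GGGCGG was in all 6 windows, and a match of letters shows neither a bound factor nor a cause.

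**Figure D1:**
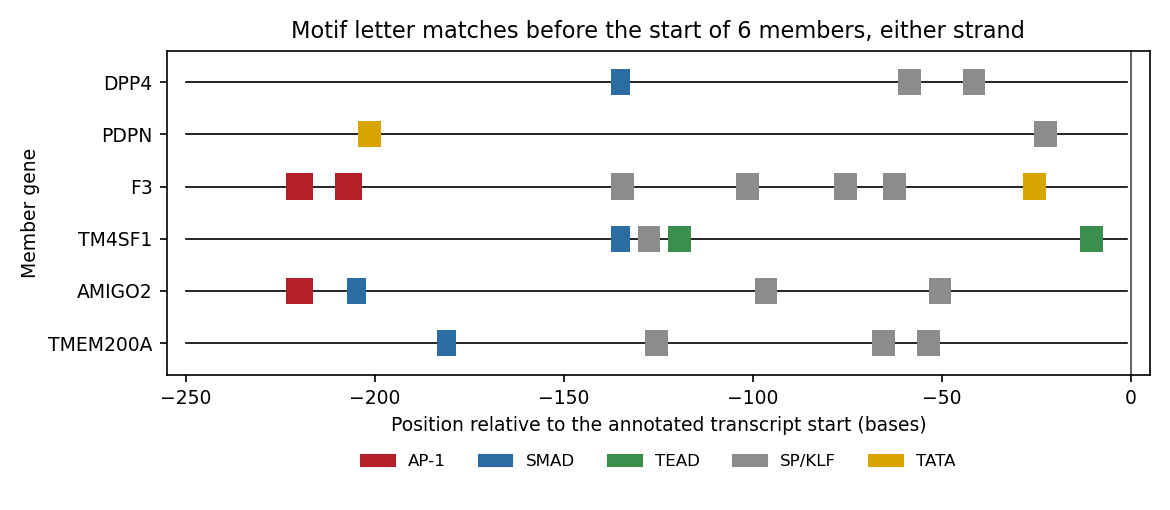
Positions of letter matches in the 250 bases before the most upstream listed transcript start of 6 members. The x axis gives bases relative to the start and each coloured block is a match on either strand; F3 has 2 AP-1 matches, AMIGO2 has 1, and the grey SP/KLF letters occur in all 6.

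The background level used here is the 95th percentile of 213 probe sets for gene families assumed silent in these cells, such as olfactory receptors. It stood at 32.6 for control-OG and at 27.6 for SB-OG. A fold is "at least" that size where the gene was above background on 1 array only. Each probe set has its own response, so levels of single probe sets were not set against each other. Sums over a list of genes are given only to compare the same list between the arrays, and the brightest probe sets carry them.

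The 2 surface peptidases were bright on control-OG and close to background on SB-OG. FAP, a serine protease that cuts after proline and is a standard marker of activated fibroblasts, had a control-OG intensity of 2029.9 and an SB-OG intensity of 39.7, 51.2-fold lower by its only probe set. On SB-OG, 9 of the 213 background probe sets were brighter than it. DPP4, the dipeptidyl peptidase CD26, which shortens incretins and chemokines and marks a class of fibroblast progenitors, was read by 3 probe sets. The brightest went from 2788 to 61.9, 45.0-fold lower. The second went from 2277 on control-OG to 24.8 on SB-OG, under background there and at least 82.5-fold lower. Another went from 1981 to 38.3, 51.7-fold lower. The 3 DPP4 probe sets thus gave log2 differences from -6.37 to -5.49.

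FAP and DPP4 are paralogues and near neighbours on chromosome 2, with the glucagon gene GCG between them. GCG was under background on both arrays, at 1.36 and 0.995. On the far side of FAP, IFIH1, a sensor of viral RNA, had a control-OG intensity of 133 and stood under background at 15.3 on SB-OG, a log2 difference of -2.26 at the background level. Next beyond IFIH1, GCA was at 77.1 and 38.6, and KCNH7 was under background on both arrays. On the far side of DPP4, SLC4A10 and TBR1 were under background on both arrays, and the proteasome gene PSMD14 was level, at 2287 and 2295. Of the genes around the 2 peptidases that were above background, IFIH1 and GCA were thus lower and PSMD14 was not.

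PDPN, podoplanin, is a mucin-type glycoprotein of stromal cells, mesothelium and lymphatic endothelium that binds the platelet receptor CLEC1B. Its brightest probe set went from 3604 on control-OG to 61.0 on SB-OG, 59.1-fold lower. A second probe set went from 3115 to 41.4, 75.2-fold lower, and another from 1287 to 29.6, 43.4-fold lower. The fourth was under background on both arrays, at 20.3 and 1.95, although the annotation gives it the same transcript accession as the probe set at 3115. The 3 probe sets above background gave log2 differences from -6.23 to -5.44.

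F3 encodes tissue factor, the membrane receptor for coagulation factor VII that starts clotting when blood meets fibroblasts around a vessel. Its only probe set went from 1529.5 on control-OG to 28.7 on SB-OG, 53.3-fold lower. The SB-OG value lay just above the background level, with 11 of the 213 background probe sets brighter.

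TM4SF1 encodes a small protein of the L6 family that crosses the membrane 4 times and is known from endothelial, mesenchymal and tumour cells. Its brightest probe set read 2994 for control-OG and 12.4 for SB-OG, under background in the latter and at least 108-fold lower. A second went from 1202 to 1.08 and another from 611 to 8.43, at least 43.5-fold and at least 22.1-fold lower. These bounds differ because the control-OG signals differ, since all 3 reached background on SB-OG. The other 2 probe sets were under background on both arrays, at 1.06 and 7.30 on SB-OG. TM4SF1 was the only member not above background on SB-OG by its brightest probe set.

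AMIGO2, a leucine-rich repeat protein first known from neurons and active in cell adhesion, went from 4394 on control-OG to 96.3 on SB-OG, 45.6-fold lower. Only 2 of the 213 background probe sets were brighter on SB-OG, which leaves AMIGO2 the member furthest above background there by that count. TMEM200A went from 2448 to 42.1, 58.2-fold lower, with 7 background probe sets brighter on SB-OG. Each was read by 1 probe set.

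**Figure D2:**
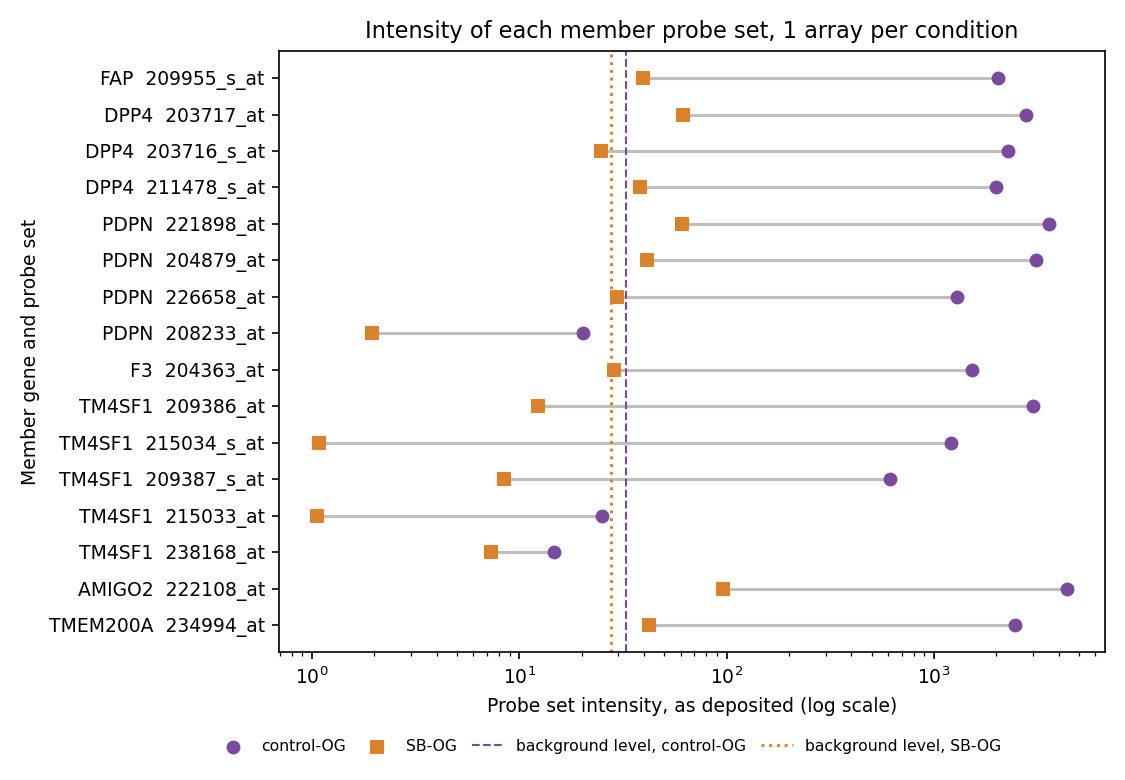
Intensity of the 16 member probe sets on a log axis, control-OG as circles and SB-OG as squares, 1 array each, with the background level of each array as a vertical line. On control-OG 13 probe sets lie above background and on SB-OG 9 do, none of them above 96.3.

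In SB-OG all 7 members were lower by 2-fold or more, where 13% of the 12499 genes above background on either array were lower by 2-fold and 12.4% were 2-fold higher. All 7 were also at least 32-fold lower, where 0.248% of those genes were. Nothing is read from these counts, since the rule took genes with large falls on the same arrays. The median log2 difference was -5.74 for the members and -0.02 for all genes. The 6 members measured on both arrays lay between -5.88 and -5.49, a range of 0.39. Probe sets of 1 gene differed with an SD of 0.45 over the genes with several above background, so the order of these 6 members is not resolved. A stricter background, the 99th percentile of the silent families, stood at 77.3 on SB-OG and left only AMIGO2 above it. The values of the other 6 are then bounds, and F3, TMEM200A and FAP stood at -4.31, -4.98 and -4.71 in place of -5.74, -5.86 and -5.68. TM4SF1, already a bound at -6.76, moved most and stood at -5.27.

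**Figure D3:**
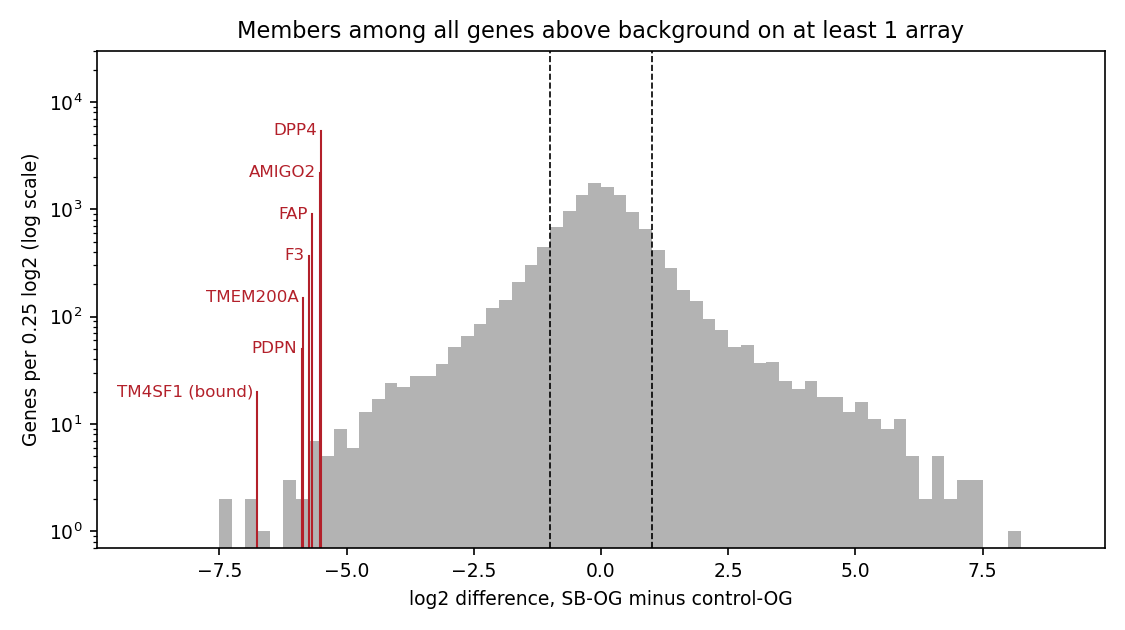
Distribution of the log2 difference, SB-OG minus control-OG, over 12499 genes, with the count per 0.25 log2 on a log axis and dashed lines at 2-fold. The 7 members, drawn as red lines, lie in the lower tail from -6.76 (TM4SF1, a bound) to -5.49 (DPP4).

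Over the 10399 genes measured on both arrays, 5 outside the group fell by at least as much as DPP4, the member with the smallest fall. Genes that rose are not counted here. These were WNT2, DKK1, KRT8, TENT5A and IL1R1. Genes under background on SB-OG cannot be placed in this order, because only a lower bound of their fall is known. IL1R1, the signalling receptor for interleukin-1, went from 4192 to 89.1, 47.1-fold lower, and its other probe set gave -3.37. CD55, a surface protein that protects cells from complement, went from 1318 to 21.6, at least 47.7-fold lower, and its other probe sets gave -4.89 to -4.07. The nearest values outside the group were DKK1 at -6.80 above PDPN, KRT8 at -5.68 and TENT5A at -5.62 on either side of FAP, IL1R1 at -5.56 above AMIGO2, and the surface protein gene BST2 at -5.38 below DPP4. Members stood beside each other elsewhere in this order, which the rule on large falls fixed, and nothing is read from it. TM4SF1, under background on SB-OG, has no neighbour by measured difference, and the nearest bounds were KRT19 at -7.48 and STMN2 at -6.56, each set by the gene's own control-OG signal.

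The relatives of FAP and DPP4 did not all share the difference. The array held 7 further prolyl peptidase genes, and of the 6 above background, 2 were 2-fold lower or more and none 2-fold higher. The median was -0.76. DPP10, a relative without enzyme activity that serves as a subunit of potassium channels, went from 531 to 20.9, at least 19.2-fold lower. The similar channel subunit DPP6 was under background on both arrays. DPP8, an active enzyme of the cytoplasm, was at 1352 and 1180 (log2 -0.20), and PRCP was at -0.81. PREP was at 0.66 by its brightest probe set and at -0.52 to -0.08 by others. The brightest probe set of DPP9 was 2.22-fold lower, with another at -0.01. Rescaling SB-OG on the hybridisation controls, which raised every SB-OG value by 0.47 on the log2 scale, left 1 of the 6 lower and put 1 higher.

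Other membrane peptidases, which share with FAP and DPP4 the task of cutting peptides or matrix at the cell surface, were lower as well. Of 10 above background, 9 were lower by 2-fold or more and none higher, and the median was -1.61. After rescaling on the hybridisation controls 5 were lower. MME (neprilysin, CD10) went from 5371 to 271, 19.8-fold lower, with another probe set at -5.29. ANPEP (CD13) was 5.95-fold lower, MMP16 4.46-fold, ECE1 4.33-fold and MMP15 3.46-fold. ADAM17, which sheds many surface proteins, was at 352 and 497. MME and ANPEP, like DPP4, are used as surface markers of stromal cells.

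Genes that act with tissue factor went both ways. Of 16 genes of coagulation control and plasminogen activation above background, F3 left out, 6 were lower by 2-fold or more and 3 higher, and the median was -0.56 (-1.04 with 8 lower after the lowess correction). TFPI, the inhibitor of the complex of tissue factor and factor VII, went from 640 to 1705, 2.66-fold higher, and its other probe sets gave 0.66 to 2.10. F2R, the thrombin receptor, went from 266 to 868, 3.26-fold higher, with another probe set at 0.31. The relative TFPI2 went from 124 to 0.907, at least 4.47-fold lower. F7 and F10 were within 2-fold and near background. PROCR, the receptor for protein C, was 8.18-fold lower and GAS6, a ligand of the receptor AXL, 14.3-fold lower. PLAU, urokinase, was 8.95-fold higher with another probe set at 3.39, while its receptor gene PLAUR was 3.19-fold lower. SERPINE2, an inhibitor of thrombin and urokinase, was 24.4-fold lower by 1 probe set and at -0.84 by another.

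The partners of podoplanin mostly stood within 2-fold. Of 9 above background, 3 were at least 2-fold lower and none higher, and the median was -0.23. CD44, a hyaluronan receptor that binds podoplanin, was 3.94-fold lower, EZR (ezrin), which links podoplanin to actin, 3.79-fold, and the lectin LGALS8 2.69-fold. The related linkers MSN and RDX were at -0.23 and 0.06. RHOA, ROCK1 and ROCK2, through which podoplanin acts on cell contraction, were at 0.13, 0.31 and 0.09. CLEC1B and the chemokine CCL21, which podoplanin also binds, were under background on both arrays. The list's median changed sign, to 0.24 with 2 lower, on rescaling to the hybridisation controls.

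No other gene of the L6 family was above background on either array. TM4SF18 and TM4SF4, which lie on either side of TM4SF1 on chromosome 3, were at 19.6 and 2.44 on control-OG and at 12.3 and 4.64 on SB-OG. With the lowess correction, which also changes which genes pass background, 1 gene of the family counted as above it and was lower, at -2.23. Next beyond TM4SF4, WWTR1 (the co-activator TAZ) was higher in SB-OG, at 1061 and 4800.4. Of 18 tetraspanins, a larger family of proteins with the same membrane topology, 2 were 2-fold lower and 2 higher around a median of -0.15, and after rescaling on the hybridisation controls 1 was lower and 4 higher, with a median of 0.32. After the lowess correction 4 were lower. TSPAN4 was 5.12-fold and TSPAN5 2.09-fold lower, TSPAN7 3.78-fold higher, and TSPAN12, a co-receptor of Frizzled-4, went from 16.7 to 2267, at least 69.6-fold higher. CD9, CD63, CD81 and CD151 stood within 2-fold.

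AMIGO1, a paralogue of AMIGO2, was near background at 50.1 and 48.0, and AMIGO3 had no probe set of its own. Of 16 leucine-rich repeat surface genes above background, 4 were lower by 2-fold or more and 5 higher, and the median was -0.59. The balance turned with the scaling, to 6 lower and 4 higher after quantile normalization and to 7 lower and 3 higher of 17 after the lowess correction. LRIG1, an inhibitor of growth factor receptors, was 14.1-fold higher with another probe set at 1.58, LRRN1 10.1-fold higher and LRRN3 higher by 2.81 on the log2 scale against background. LRRC15, a surface marker of TGF-β-activated fibroblasts, went from 257 to 36.6, 7.02-fold lower, and LRRTM4 was at least 5.81-fold lower. Of the TMEM200 relatives, TMEM200B went from 196 to 78.1, 2.51-fold lower (at -0.86 after rescaling on the hybridisation controls), and TMEM200C was under background on both arrays.

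**Figure D4:**
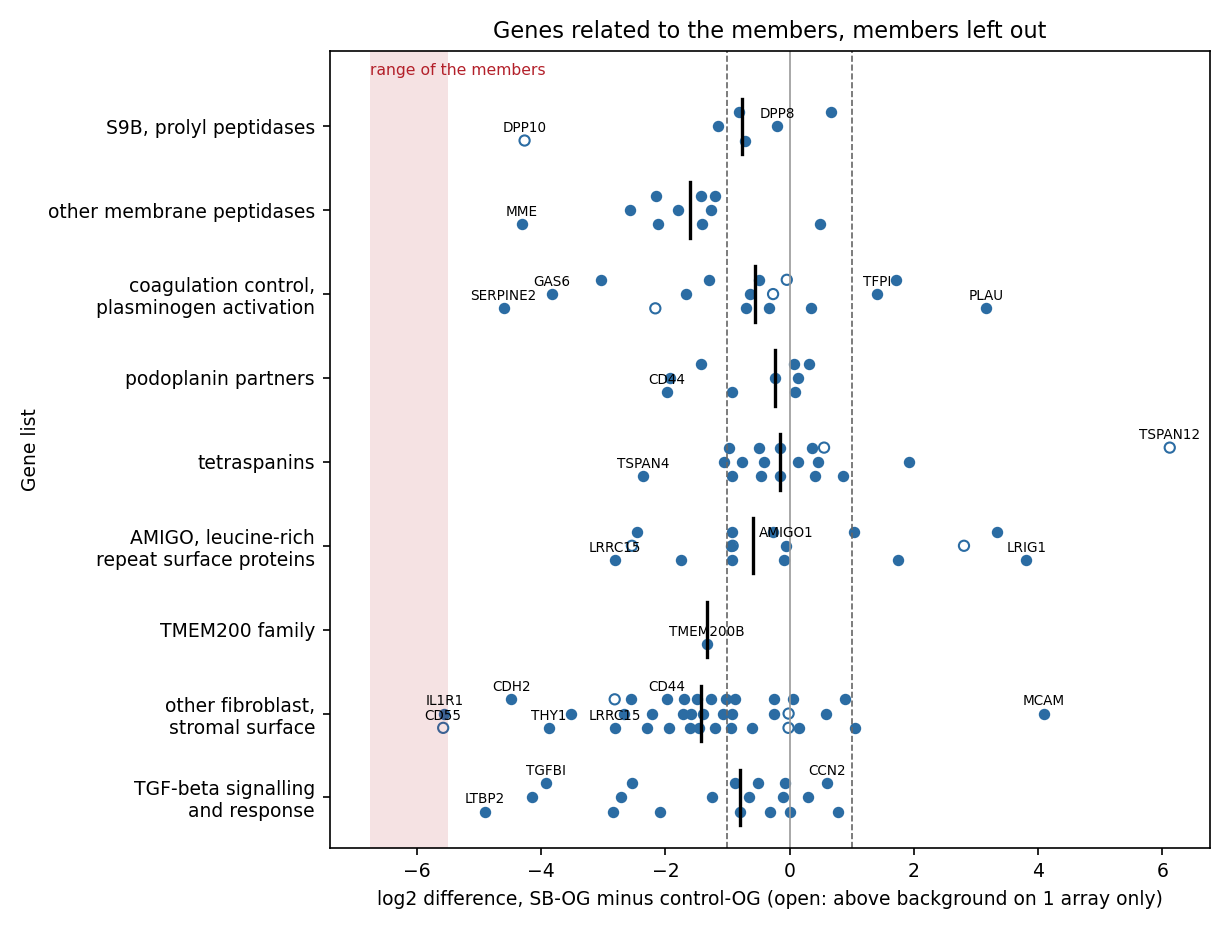
log2 difference, SB-OG minus control-OG, of each gene above background in 9 lists related to the members, with the members left out, list medians as black bars and dashed lines at 2-fold. The shaded band is the range of the 7 members, from -6.76 to -5.49, which IL1R1 and CD55 alone reach.

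Of 38 other fibroblast and stromal surface genes, each above background on 1 array or both, 24 were lower by 2-fold or more and 2 higher, and the median was -1.42. On rescaling to the hybridisation controls 18 were lower and 4 higher. Besides IL1R1 and CD55, the lowest were CDH2 (N-cadherin) at -4.48 and THY1 (CD90) at -3.87, with other probe sets at -3.81 and at -3.31 to -3.07. MCAM (CD146) was higher, at 45.7 and 778. The receptor for PDGF was split, with PDGFRA 2.62-fold lower (another probe set at -0.08) and PDGFRB 2.07-fold higher. CAV1 was level, at 3120 and 3483. Of 19 genes of TGF-β signalling and response, 8 were 2-fold lower and none higher around a median of -0.81, and 2 were higher after that rescaling. LTBP2, which binds fibrillin microfibrils, was 30.1-fold lower with another probe set at -3.68, LMCD1 17.8-fold with others at -5.08 to -1.05, and TGFBI, a matrix protein induced by TGF-β, 15.1-fold. The brightest probe set of TGFB1, the ligand itself, was 7.15-fold lower and another gave -0.13, and the cell cycle inhibitor CDKN2B was 6.57-fold lower. BHLHE40, SMAD7 and SKIL were lower too, at -2.53, -2.08 and -1.25, with another probe set of BHLHE40 at -2.21 and another of SKIL at -3.05. The remaining 11 genes of the list stayed within 2-fold by their brightest probe sets. Among them were CCN2 at 0.61, JUNB at -0.08, PMEPA1 at -0.88 and CCN1 at -0.65 (another probe set at -1.08). TGFBR1 (ALK5), a receptor kinase that SB-431542 blocks, was at 1995 and 1602.

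Fibroblast matrix genes did not mark control-OG alone. All 14, collagens, decorin, lumican, fibronectin and vimentin among them, were above background on both arrays, with 5 at least 2-fold lower, 1 higher and a median of -0.71, and 2 were lower after the rescaling on hybridisation controls and 3 after the quantile or lowess correction. Their intensities summed to 177712 on control-OG and 94862 on SB-OG. The lower ones were COL5A1 at -2.54, LUM at -1.95, COL1A1 at -1.43, DCN at -1.16 and COL1A2 at -1.13, and COL6A3 was at 1.49. Dimmer probe sets of these genes often gave larger falls. Another gave -5.185 for LUM, and others gave -2.97 to -0.59 for COL1A1, -2.26 to -0.96 for COL1A2 and -2.14 to -0.74 for DCN. FN1, at -0.70 by its brightest probe set, had others at -4.09 to -0.71. The labels name no cell type, and the name fibroblast describes what the members are known for.

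Markers of other cell types also differed between the arrays, some lists lower and others higher, and their part in the members' differences was not tested. Of 10 mesothelial markers, 6 were above background and all 6 were 2-fold lower, from 18028 to 478 in sum over the list. These were KRT8, KRT18 at -4.88 and KRT19, which simple epithelia share, LRRN4 at least 20.9-fold, CALB2 at least 4.56-fold and BNC1 at -3.75 (another probe set at -1.61), while MSLN, UPK3B, WT1 and ITLN1 were under background on both arrays. Skeletal muscle markers went from 451 to 57827 in sum, with 11 of 12 above background 2-fold higher. MYH8 was higher by at least 8.01, TNNI1 by 7.33, TNNC2 by 7.26, CKM by at least 7.20 and TTN by 6.79 on the log2 scale. Other probe sets of TTN gave 3.06 to 4.69, and another of MYH8 gave 7.89. Of 11 blood and lymphatic endothelial markers, 4 were above background and 2 were lower, KDR at least 33.8-fold and TEK at least 14.6-fold with another probe set at -0.61. After the lowess correction 5 were above background and all 5 were lower. The list summed to 1453 and 169, and CDH5, VWF, TIE1, LYVE1, FLT4, EMCN and CLDN5 were under background on both arrays. Of 9 epithelial markers only CDH1 was above background by its brightest probe set, on SB-OG, at 1.34 (0.01 after the lowess correction). Another probe set of ESRP1 was above background on at least 1 array and gave 0.21. The epithelial list summed to 105 and 170. SYNPO and PODXL, markers of podocytes, were at -2.85 and -1.34, and NPHS1 was under background on both arrays. The podocyte list summed to 962 and 230 with 2 of 2 lower, or 1 of 2 after the rescaling on hybridisation controls. Of the leukocyte markers CD14 was above background, on control-OG only, and PTPRC, CD3E and ITGAM were not, and the list summed to 271 and 41.4.

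**Figure D5:**
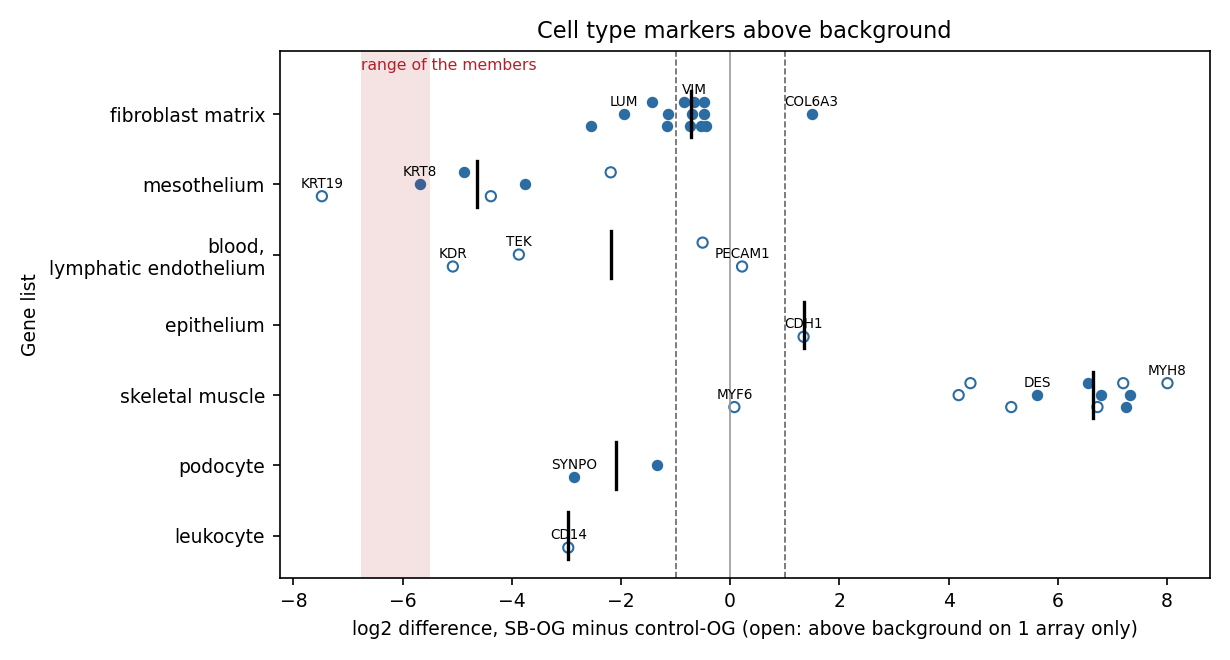
log2 difference, SB-OG minus control-OG, of cell type markers above background on at least 1 array, with list medians as black bars, dashed lines at 2-fold and the range of the 7 members shaded. Mesothelial markers have a median of -4.63, fibroblast matrix genes -0.71 and skeletal muscle markers 6.64.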

How the data were processed

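RNA of 2 mixtures was measured on 1 array each and grouped by sample title. The authors deposited a linear intensity for each of 54675 probe sets on each array. How probes were summarised is not stated in the labels. The mean without the lowest and highest 2% was 150.02 on both arrays, so they appear scaled to a common level. Values were used as deposited. Gene names came from the platform annotation, with symbols updated by gene ID through a table of assembly GRCh38.p14. Only the 41097 with 1 gene were used, and 19735 of 19775 genes matched that table. Each gene was read by the probe set of highest mean log2 value, and values under background were raised to it before differences were taken.

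The members and lists were chosen with earlier results of these arrays known. Named were all members, up to 5 genes of each list with the largest 2-fold difference, family relatives, and the genes next to each member in the order of differences. Counts of the lists under other scalings were added after seeing the data. Other genes, such as F7, ADAM17, RHOA and TFPI, were named for their role after their values were seen, as were those on the same chromosome. The calculation was tested on simulated arrays. The tools were pandas 2.3.3, numpy 2.4.6, statsmodels 0.14.6 and Python 3.11.15. No depth or interval applies to arrays, and their number limits the precision.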

Additional observations from a re-analysis of the deposited data

How the results depend on the processing

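The count of members at least 2-fold lower was 7 under every scaling and floor tried and at 3-fold. It was 6 of 6 with only probe sets free of _s, _x or _a in their name, which leaves FAP out, and 5 of 5 with the dimmest probe set, which is under background for PDPN and TM4SF1. The median of the members, -5.74, was -5.27 with SB-OG rescaled on the hybridisation controls and -5.17 with the floor at the 99th percentile. The share of all genes at least 2-fold lower, 13%, was 24.1% after the lowess correction, 7.27% after that rescaling and 6.36% at 3-fold. Of all genes 2-fold apart, 51.1% were lower as deposited, 72.7% after lowess and 23.2% after rescaling, and these moved the median of all genes by -0.19 and 0.47. Of 67 values of single members under other settings, 50 stayed within the SD of 0.45 between probe sets of 1 gene, 17 moved further and none changed direction. No paired analysis was possible because each condition had 1 array. Signals near background limit the SB-OG values, and no replicate bears on any of them.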

Other observations

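Genes beside the other members on their chromosomes took various values. On chromosome 1, PRDM2, next to PDPN, was at 1.10 on the log2 scale, and ABCD3 and SLC44A3, on either side of F3, were at 0.02 and 1.59. On chromosome 12, PCED1B, next to AMIGO2, went from 167 on control-OG to 2.95 on SB-OG, under background there, so that only a bound of -2.60 is known. On the other side of AMIGO2, SLC38A4 and SLC38A2 were at -0.58 and -1.16. On chromosome 6, SAMD3, next to TMEM200A, went from 56.1 to 8.39, also under background on SB-OG, and L3MBTL3 beyond it was at -1.24. On the other side, SMLR1 was under background on both arrays, and EPB41L2 and AKAP7 were at 0.68 and 2.06.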
